A study of Homo sapiens with 9 samples.

Results

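The MYC, MAX and MXD network was followed through its 10 members MYC, MAX, MXD1, MXI1, MXD3, MXD4, MNT, MGA, MLX and MLXIP, taken by gene symbol from a count table of 58735 gene identifiers in THP-1 cells depleted of NFATC2. All 10 were among the 14975 genes with enough counts to be tested. THP-1 is an established human monocytic acute myeloid leukaemia line that carries the MLL-AF9 fusion. Every culture received lentivirus made in 293T cells and puromycin from 24 hours, and polyadenylated RNA was taken at 48 hours after spinoculation. The groups were cells with the NFATC2 shRNA shRNA-143, cells with the NFATC2 shRNA shRNA-146, and cells with a non-targeting control shRNA, with 3 libraries each. A single cell line was used, so the values describe THP-1 and no other leukaemia. Whether libraries of a group came from separate cultures was not stated in the sources used here, so a p-value reflects library-to-library spread that could be technical.

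MYC is a basic helix-loop-helix leucine zipper protein that binds E-box DNA (CACGTG) as a dimer with MAX and activates genes of growth and biosynthesis. The proteins of the MXD family (MXD1, MXI1, MXD3 and MXD4) and MNT compete with MYC for MAX and recruit SIN3 corepressors to the same sites, and MGA pairs with MAX in a Polycomb complex. MLX is a MAX-like partner that pairs with MXD1, MXD4 and MNT, and with the glucose-sensing activator MLXIP, also called MondoA. In myeloid cells MYC is known as a driver of leukaemic growth, and MXD1 is known to increase as myeloid cells mature.

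The sequences shown here are the member promoters that hold the dimer's own binding motif. RefSeq promoters, 250 bases before to 50 bases after a gene's start on GRCh38.p14, were matched for 9 members, 14 promoters in all, and a script searched them on both strands for the E-box CACGTG and for the NFAT core GGAAA. The E-box, which is its own reverse complement, was found in 3 promoters, those of MXD4, MNT and MLX, and in 7.26% of all 35116 promoters of that length. The promoter of MXD4, the member whose level is described at most length here, lies at chr4:2262060-2262359 on the minus strand, and its E-box begins at base -238 from the start. For MNT (chr17:2401236-2401265, minus strand, E-box from base -193) and MLX (chr17:42567038-42567067, plus strand, E-box from base -50) the 30 bases around the motif are given. Capitals mark the E-box, and each sequence runs 5′ to 3′.
MXD4: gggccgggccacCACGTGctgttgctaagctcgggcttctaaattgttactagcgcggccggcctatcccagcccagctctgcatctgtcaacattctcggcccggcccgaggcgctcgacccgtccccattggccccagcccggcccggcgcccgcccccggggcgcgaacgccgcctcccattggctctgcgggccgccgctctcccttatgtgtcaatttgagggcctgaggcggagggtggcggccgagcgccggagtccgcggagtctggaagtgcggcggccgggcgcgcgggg
MNT: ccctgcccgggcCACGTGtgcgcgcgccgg
MLX: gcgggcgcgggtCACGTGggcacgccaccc
The NFAT core was found in 10 of the 14 promoters, of 8 members, and in 61.2% of all promoters. The MXD4 promoter held no match to those letters in either orientation. These matches are letters in a window and were not tested as binding sites.

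Libraries held between 40047459 and 44669709 counts, with 18485 to 21723 genes having a count. With either shRNA the libraries numbered 1 stood apart from those numbered 2 and 3. In control the split was less clear. There the chi-square per degree of freedom against replicate 3 was 78.3 for replicate 1 and 62.4 for replicate 2. For 4 of the 10 members, MYC, MNT, MGA and MLXIP, all 3 libraries numbered 1 lay below the other 6 (20.3% of tested genes), and for MAX and MLX all 3 lay above them (14.3%). Results are therefore given from edgeR's quasi-likelihood test fitted to 3 group means, or from the same fit blocked on the replicate number. The block compares libraries within a number. Called means an adjusted p under 0.05 over all tested genes. Levels are library-scaled counts (CPM, after TMM scaling), values in the 3 libraries of a group are in the order of replicates 1, 2 and 3, and differences are log2 fold changes ± SE.

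NFATC2, the target and a calcineurin-regulated transcription factor, stood at 1.49, 7.40 and 6.95 CPM with shRNA-143, 2.59, 6.71 and 9.43 CPM with shRNA-146, and 12.7, 27.6 and 27.4 CPM in control. All 6 shRNA libraries lay below all 3 control libraries. Its log2 fold change was -2.27 ± 0.24 with shRNA-143 (edgeR with the block, adjusted p = 0.00168) and -1.96 ± 0.23 with shRNA-146 (adjusted p = 0.00435), and neither was called without the block (adjusted p = 0.497 and 0.464). The monocytic markers fixed for the line were all above the filter, 14 of 14, with LYZ at 313, 282 and 269 CPM and SPI1 at 231, 231 and 213 CPM on average with shRNA-143, with shRNA-146 and in control. Exons of AC020656.1 overlap 34.0% of LYZ, which leaves its count uncertain. CD68, whose exons are mostly shared with another gene, was near 0 at 0.306, 0.276 and 0.251 CPM. Of 15 markers of other cell types, 4 passed the filter, among them KRT8, COL1A1 and PECAM1, and CD3E and MS4A1 had 0 counts in every group.

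MYC was the most abundant member per kilobase of deposited gene length. That length joins all annotated exons of a gene and can exceed that of a transcript, so the order between members depends on it. In control cells it averaged 57.8 ± 10.1 CPM per kilobase (SD, n = 3), above 94.4% of tested genes. The dimer partners MLX (24.9 ± 4.99) and MAX (17.6 ± 3.37) came next, and their ranges overlapped. Below them stood MXD4 at 5.47 ± 0.16, MXI1 at 4.23 ± 0.62, MLXIP at 2.25 ± 1.43, MGA at 1.86 ± 0.51, MXD3 at 1.24 ± 0.16, MXD1 at 0.944 ± 0.13 and MNT at 0.507 ± 0.30 CPM per kilobase. Neighbours in this order overlapped between their control libraries from MXI1 down to MXD1, while MYC stood clear of MLX, MAX of MXD4, MXD4 of MXI1 and MXD1 of MNT. MXD4 was thus the antagonist with the highest level, and the one with the smallest spread over control libraries, with a coefficient of variation of 2.98% against 59.2% for MNT and 63.8% for MLXIP.

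Of the 10 members, 0 were called in any of the comparisons without the block, where edgeR called 0.0467% of tested genes with shRNA-143, 0.0334% with shRNA-146, 0.0334% when both shRNAs were averaged and 0.0467% between the shRNAs. At an unadjusted p under 0.05 that fit held 1 member that was higher with shRNA-143, MXD4 (3.19% of tested genes were higher at that p), 1 that was higher with shRNA-146, MXD1 (4.28%), and 0 for the mean of both. With the block 1 member was called, MXD4, which rose with shRNA-143, where 1.6% of tested genes rose. With the block 0 members were called with shRNA-146 (4.42% of tested genes) and 0 for the mean of both (5.74%). DESeq2, without a block, called 0 members in the 4 comparisons, where it called 0.689% of genes with shRNA-143, 0.779% with shRNA-146, 1.04% for the mean of both and 0.345% between the shRNAs. At an unadjusted p under 0.05 the fit with the block held MXD1 and MLXIP as higher with shRNA-146 (12.2% of tested genes), and MXD1, MXD4 and MLXIP as higher for the mean of both (12.8%). With the block and without shRNA-146 replicate 1, 3 members were called for the mean of both, MNT, MXD4 and MLXIP (edgeR adjusted p from 0.0166 to 0.0379), where 10.2% of genes rose.

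**Figure D1:**
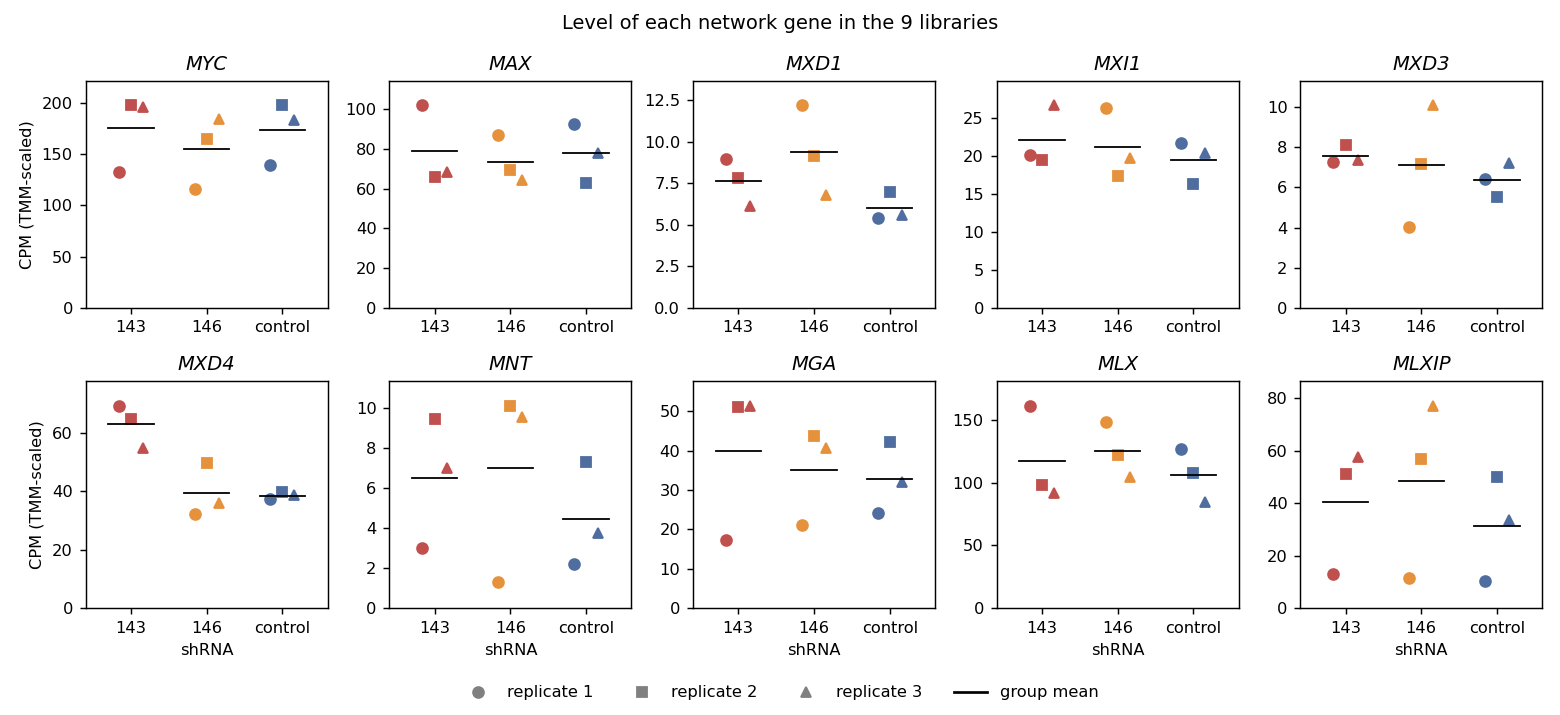
Level of each member in CPM (linear axes from 0) in the 3 libraries of shRNA-143, shRNA-146 and control, with the marker shape giving the replicate number and the line the group mean. For MXD4 all 3 shRNA-143 libraries (55.1 to 69.5 CPM) lie above the other 6 (32.3 to 49.7 CPM), while for MYC, MNT, MGA and MLXIP the libraries numbered 1 lie below all others.

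MYC itself was not called with either shRNA. It stood at 132, 198 and 196 CPM with shRNA-143, 116, 165 and 184 CPM with shRNA-146, and 140, 198 and 183 CPM in control. The library numbered 1 was the lowest of its group each time, and the groups overlapped. With the block the log2 fold change of MYC was 0.01 ± 0.12 with shRNA-143 (95% interval -0.26 to 0.27) and -0.17 ± 0.12 with shRNA-146 (-0.44 to 0.09; adjusted p = 0.419). For the mean of both shRNAs the interval ran from -0.31 to 0.15 on the log2 scale. Without the block the intervals were wider, at -0.54 to 0.57 with shRNA-143 and -0.71 to 0.39 with shRNA-146. For the mean of both shRNAs the interval without the block was -0.55 to 0.40. These intervals bound the change of MYC mRNA only, and MYC protein, which is turned over rapidly by ubiquitin ligases, was not measured.

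MAX is the obligate partner of MYC and also pairs with MXD proteins and MNT. It had 102, 66.1 and 68.6 CPM with shRNA-143, 87.2, 69.3 and 64.4 CPM with shRNA-146, and 92.8, 62.9 and 78.0 CPM in control. The library numbered 1 was the highest of each group, opposite to MYC. With the block the log2 fold change of MAX for the mean of both shRNAs was -0.03 ± 0.11, with a 95% interval of -0.29 to 0.22. Without the block that interval was -0.49 to 0.43. Per kilobase, the ratio of MYC to MAX ran from 1.92 to 4.41 with shRNA-143, from 1.96 to 4.22 with shRNA-146 and from 2.22 to 4.64 in control, with the lowest value of each group in the library numbered 1.

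MXD4, the antagonist at the highest level here, rose with shRNA-143 in the fit with the block and was not called with shRNA-146. It stood at 69.5, 64.7 and 55.1 CPM with shRNA-143, 32.3, 49.7 and 36.1 CPM with shRNA-146, and 37.4, 39.7 and 38.6 CPM in control. Each shRNA-143 library lay above each control library and each shRNA-146 library, while shRNA-146 libraries lay on both sides of control. Groups with shRNA-143 wholly above control were seen for MXD4 and MXD3 among the members, 2 of 10, and for 7.09% of tested genes. Within a replicate number the log2 ratio to control was 0.89, 0.70 and 0.51 with shRNA-143, and -0.21, 0.32 and -0.10 with shRNA-146. The change with shRNA-143 was 0.71 ± 0.16 with the block, or 1.63-fold (95% interval 0.36 to 1.06 on the log2 scale; edgeR adjusted p = 0.0387), and 0.71 ± 0.20 without it (adjusted p = 0.460). The authors' deposited table for shRNA-143 gives MXD4 a log2 fold change of 0.73 with an adjusted p of 0.0410, beside 0.21% of its genes listed as higher at that threshold.

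The size of the MXD4 change held in each setting tried, between 0.55 and 0.80 on the log2 scale, whereas the call did not. With the block, MXD4 was called without shRNA-146 replicate 1 (edgeR adjusted p = 0.00481) and without shRNA-146 replicate 3 (adjusted p = 0.0149). The shRNA-146 libraries enter this comparison only through the shared fit. The call was lost without shRNA-146 replicate 2 (adjusted p = 0.0512). It was also lost on leaving out any single shRNA-143 or control library, with adjusted p-values from 0.110 to 0.209. MXD4 was called without the 3 libraries numbered 1, a setting chosen after seeing the data, at 0.61 ± 0.13 (edgeR with the block, adjusted p = 0.0209). Correcting each library for its trend with gene length gave 0.62 ± 0.16 with the block (adjusted p = 0.0759). With shRNA-146 MXD4 stood at 0.01 ± 0.16 with the block (95% interval -0.34 to 0.36; adjusted p = 0.974).

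**Figure D2:**
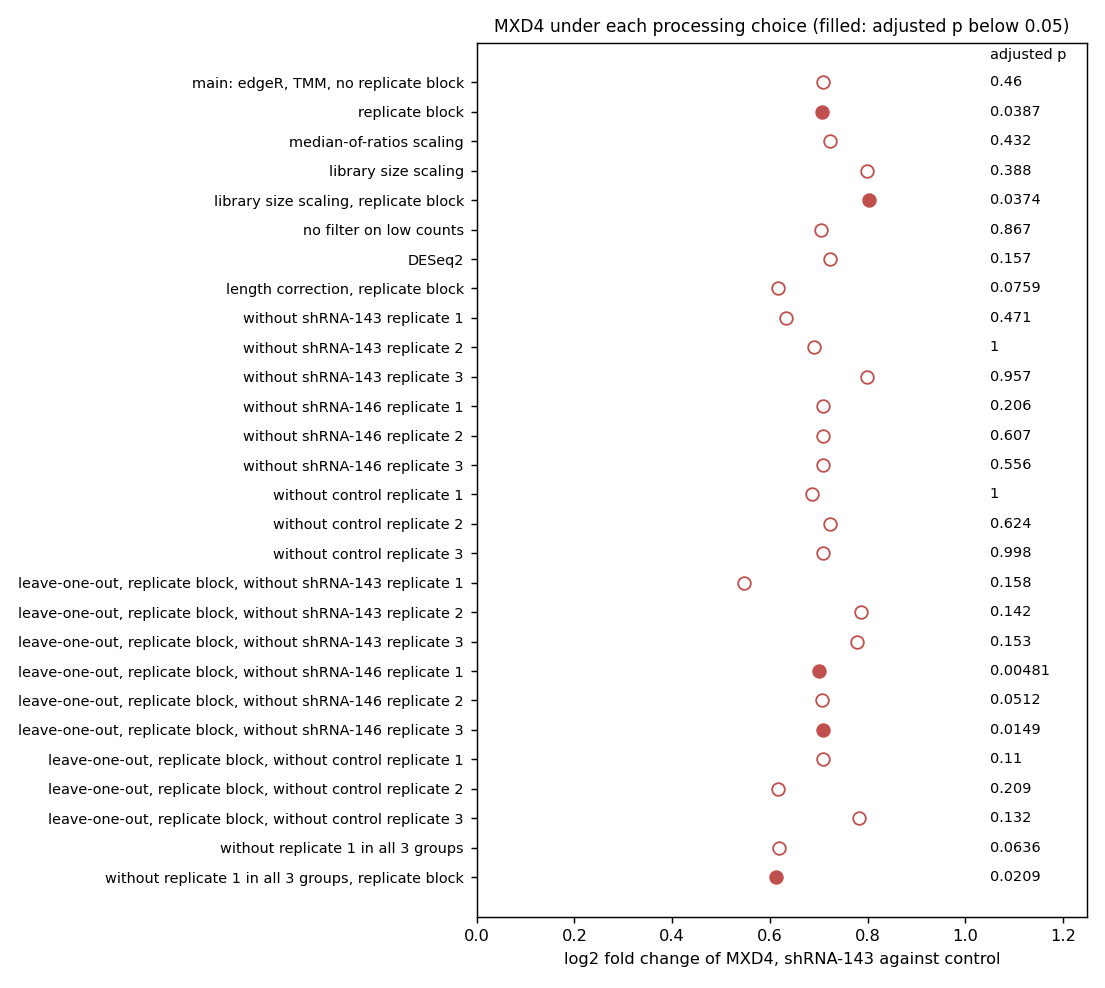
Log2 fold change of MXD4, shRNA-143 against control, under each setting (linear axis from 0), with filled points where the adjusted p was under 0.05 and the adjusted p printed at the right. Values stay between 0.55 and 0.80, and 5 settings, all with the replicate block, pass the threshold.

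Set directly against shRNA-143, MXD4 was lower with shRNA-146 in all 3 number pairs. All 3 shRNA-146 libraries lay below all 3 shRNA-143 libraries, as for 3.69% of tested genes and for no other member. The difference was -0.69 ± 0.16 with the block (95% interval -1.04 to -0.34), and did not pass the threshold (edgeR adjusted p = 0.0731), nor did it without the block (-0.68 ± 0.20, adjusted p = 0.765). With the block edgeR called 1.2% of tested genes between the shRNAs and 0 of the 10 members. NFATC2 in the same comparison was at 0.31 ± 0.23, with a 95% interval of -0.20 to 0.82 (adjusted p = 0.713).

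MXD1, the antagonist linked to myeloid maturation, was above control in each of the 6 comparisons within a number, without being called. Its levels were 8.95, 7.83 and 6.14 CPM with shRNA-143, 12.2, 9.13 and 6.82 CPM with shRNA-146, and 5.44, 6.96 and 5.58 CPM in control. The log2 ratios within a number were 0.71, 0.17 and 0.14 with shRNA-143, and 1.16, 0.39 and 0.29 with shRNA-146, the largest in each case for number 1. MLXIP was the other member above control in all 6 pairs, 2 of 10 against 12.4% of tested genes. MXD1's log2 fold change with shRNA-146 was 0.61 ± 0.20 with the block (edgeR adjusted p = 0.0975) and 0.65 ± 0.27 without it (adjusted p = 0.537). Scaling by library size alone with the block raised it to 0.74 ± 0.18 (adjusted p = 0.0480), where 4.53% of genes rose, and leaving out the libraries numbered 1 lowered it to 0.34 ± 0.16 (adjusted p = 0.158). The authors' deposited table for shRNA-146 gives it a log2 fold change of 0.65 and an adjusted p of 0.672.

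MXI1 and MXD3, the other MXD antagonists, were not called. MXI1 stood at 20.2, 19.6 and 26.7 CPM with shRNA-143, 26.3, 17.5 and 19.8 CPM with shRNA-146, and 21.7, 16.3 and 20.4 CPM in control, and the groups overlapped. MXD3, the MXD gene known for expression in proliferating cells, had 7.28, 8.10 and 7.36 CPM with shRNA-143, 4.04, 7.18 and 10.1 CPM with shRNA-146, and 6.41, 5.54 and 7.21 CPM in control. The shRNA-143 libraries of MXD3 lay just above control and the shRNA-146 libraries on both sides of it. With the block the log2 fold changes with shRNA-143 and shRNA-146 were 0.19 ± 0.17 and 0.12 ± 0.17 for MXI1, and 0.26 ± 0.24 and 0.10 ± 0.25 for MXD3. Counts of MXD3 are uncertain because 22.5% of its exon length overlaps PRELID1, on the opposite strand, and 18.0% overlaps RAB24, on the same strand. The strand setting of the counting, which bears on the PRELID1 overlap, was not stated.

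MNT and MGA, the antagonists outside the MXD family, were not called with all 9 libraries, and both were lowest in the libraries numbered 1. MNT, a broadly expressed repressor, had 2.97, 9.45 and 6.99 CPM with shRNA-143, 1.32, 10.1 and 9.53 CPM with shRNA-146, and 2.21, 7.32 and 3.76 CPM in control. Its log2 ratio to control within numbers 1, 2 and 3 was 0.42, 0.37 and 0.89 with shRNA-143, and -0.72, 0.46 and 1.33 with shRNA-146, so shRNA-146 replicate 1 ran against the others. MNT was not called with all libraries (edgeR with the block, 0.47 ± 0.32 with shRNA-146, adjusted p = 0.400). Without shRNA-146 replicate 1 its change with shRNA-146 was 0.86 ± 0.20 (edgeR with the block, adjusted p = 0.0249), where 6.47% of genes rose. Without the 3 libraries numbered 1 it was 0.88 ± 0.21 (adjusted p = 0.0256), where 7.69% rose. That last setting was chosen after seeing the data, and without its block 0 members were called with shRNA-146. Exons of the antisense gene AC006435.1 overlap 12.2% of MNT.

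MGA, the scaffold of the Polycomb complex PRC1.6, had 17.2, 51.0 and 51.4 CPM with shRNA-143, 21.1, 43.8 and 40.6 CPM with shRNA-146, and 24.2, 42.1 and 32.0 CPM in control. In libraries numbered 1 it was below control with both shRNAs, with log2 ratios of -0.49 for shRNA-143 and -0.20 for shRNA-146, and in libraries numbered 2 and 3 it was above control with both, at 0.06 to 0.68. Over all libraries the change with shRNA-143 was 0.17 ± 0.19 with the block (edgeR adjusted p = 0.660). Without the 3 libraries numbered 1 it was 0.48 ± 0.13 (edgeR with the block, adjusted p = 0.0461), where 5.6% of tested genes rose. That setting was chosen after seeing the data, and without its block 0 members were called with shRNA-143. MGA has the greatest gene length of the network, counted over exons. Correction for gene length turned its change to -0.05 with shRNA-143 and to -0.22 with shRNA-146.

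In the arm that pairs with MLX, MLXIP had 12.8, 51.2 and 57.4 CPM with shRNA-143, 11.5, 56.7 and 77.1 CPM with shRNA-146, and 10.2, 49.8 and 33.7 CPM in control. The libraries numbered 1 were far below the others in each group, and within a number the log2 ratio to control was 0.33, 0.04 and 0.77 with shRNA-143 and 0.18, 0.19 and 1.19 with shRNA-146. MLXIP's log2 fold change with shRNA-146 was 0.52 ± 0.20 with the block (edgeR adjusted p = 0.141) against an SE of 0.78 without it. It was called without shRNA-146 replicate 1 (0.67 ± 0.19, adjusted p = 0.0450), and not without all libraries numbered 1 (0.68 ± 0.22, adjusted p = 0.0691). MLX had 162, 98.1 and 92.2 CPM with shRNA-143, 148, 122 and 104 CPM with shRNA-146, and 127, 107 and 84.4 CPM in control, and its groups overlapped. With the block MLX stood at 0.12 ± 0.13 with shRNA-143 and 0.24 ± 0.13 with shRNA-146 (adjusted p = 0.305). Exons of PSMC3IP, on the opposite strand, overlap 18.1% of MLX.

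**Figure D3:**
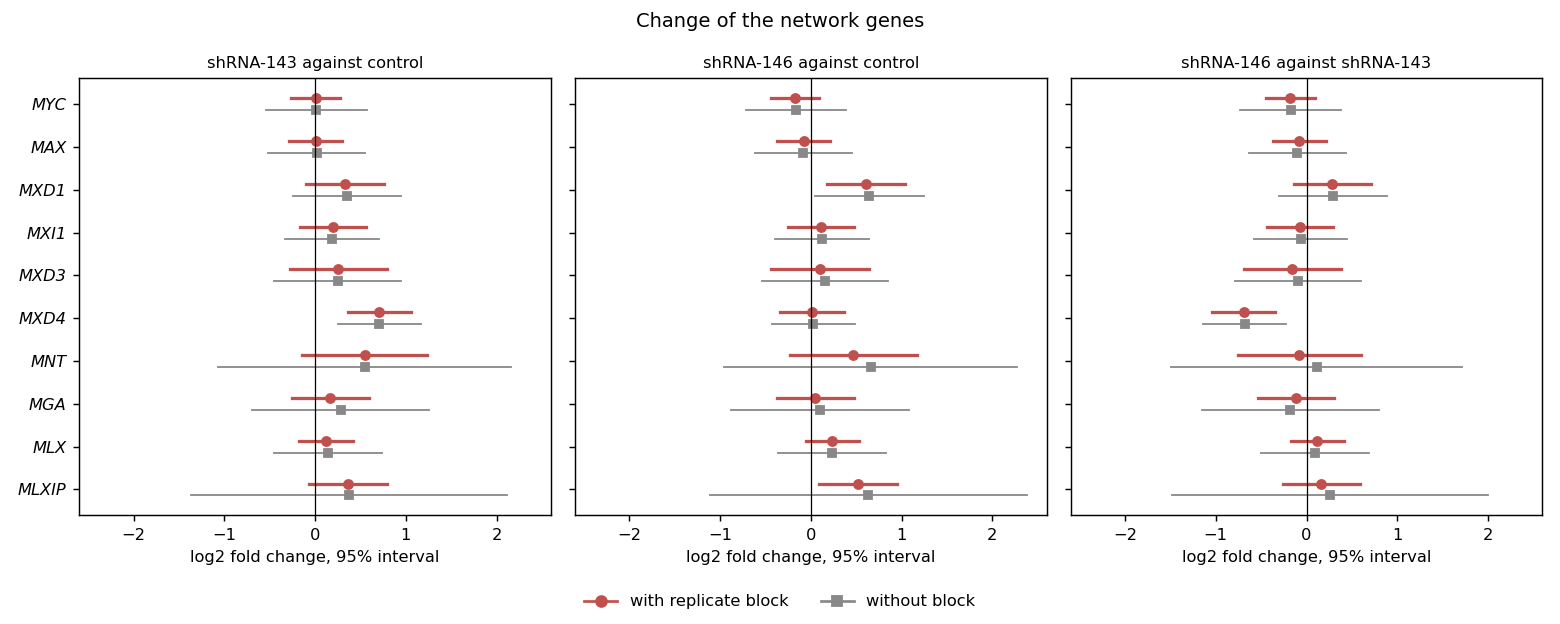
Log2 fold change of each member with its 95% interval in 3 comparisons (linear axes), from the fit with the replicate block (red circles) and without it (grey squares). MXD4 lies above 0 with shRNA-143 (0.71) and below 0 for shRNA-146 against shRNA-143 (-0.69), MYC and MAX lie near 0, and the block narrows the interval of MLXIP most.

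Across the network, 10 of 10 members had a positive log2 fold change with shRNA-143 and 8 of 10 with shRNA-146, all but MYC and MAX, against 52.2% and 55.4% of tested genes without the block. The median over members was 0.27 with shRNA-143 and 0.14 with shRNA-146, against 0.02 and 0.05 over all tested genes. With shRNA-143, MYC (0.015) and MAX (0.019) were positive yet below the median of all tested genes (0.021). Scaling by library size alone moved the median of all genes to 0.12 with shRNA-143 and to 0.19 with shRNA-146, and turned MAX with shRNA-146 to 0.05, below that median. These comparisons share their control libraries. Changes also followed gene length over all genes. For the mean of both shRNAs the median log2 fold change was -0.20, -0.09, 0.03, 0.11 and 0.21 in 5 bins of equal gene number, from the shortest to the longest genes. MYC is in bin 2, MAX, MXI1, MXD3 and MLX in bin 3, MXD1 and MXD4 in bin 4, and MNT, MGA and MLXIP in the bin of longest genes. The length correction turned MGA negative with both shRNAs and MXD4 negative with shRNA-146. The part of this trend in the members' directions was not tested beyond that length correction.

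Summed per kilobase, the 6 antagonists (the MXD genes, MNT and MGA) reached 19.4 ± 0.95 CPM per kilobase with shRNA-143, 15.8 ± 1.48 with shRNA-146 and 14.2 ± 0.44 in control (SD, n = 3 each). The ratio of that sum to MYC was 0.416, 0.307 and 0.302 with shRNA-143, 0.371, 0.315 and 0.258 with shRNA-146, and 0.295, 0.221 and 0.237 in control. It was above control in each of the 6 comparisons within a number, while shRNA-146 and control libraries overlapped across numbers. The ratio sets longer genes against a shorter one. MYC is in length bin 2, where the median change of all genes was -0.09 for the mean of both shRNAs. The antagonists are in bins 3, 4 and 5, with medians of 0.03, 0.11 and 0.21. The ratio was not corrected for length, and the part of gene length in it was not tested. MXD4 made up 53.6%, 45.4% and 39.6% of the sum with shRNA-143, 31.9%, 40.7% and 32.3% with shRNA-146, and 38.6%, 38.7% and 37.9% in control. With MXD4 left out the ratio was 0.193, 0.167 and 0.183 with shRNA-143, 0.253, 0.187 and 0.175 with shRNA-146, and 0.181, 0.136 and 0.147 in control. The members were chosen with results of these data known, so the sums are a description and no test was made of them.

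**Figure D4:**
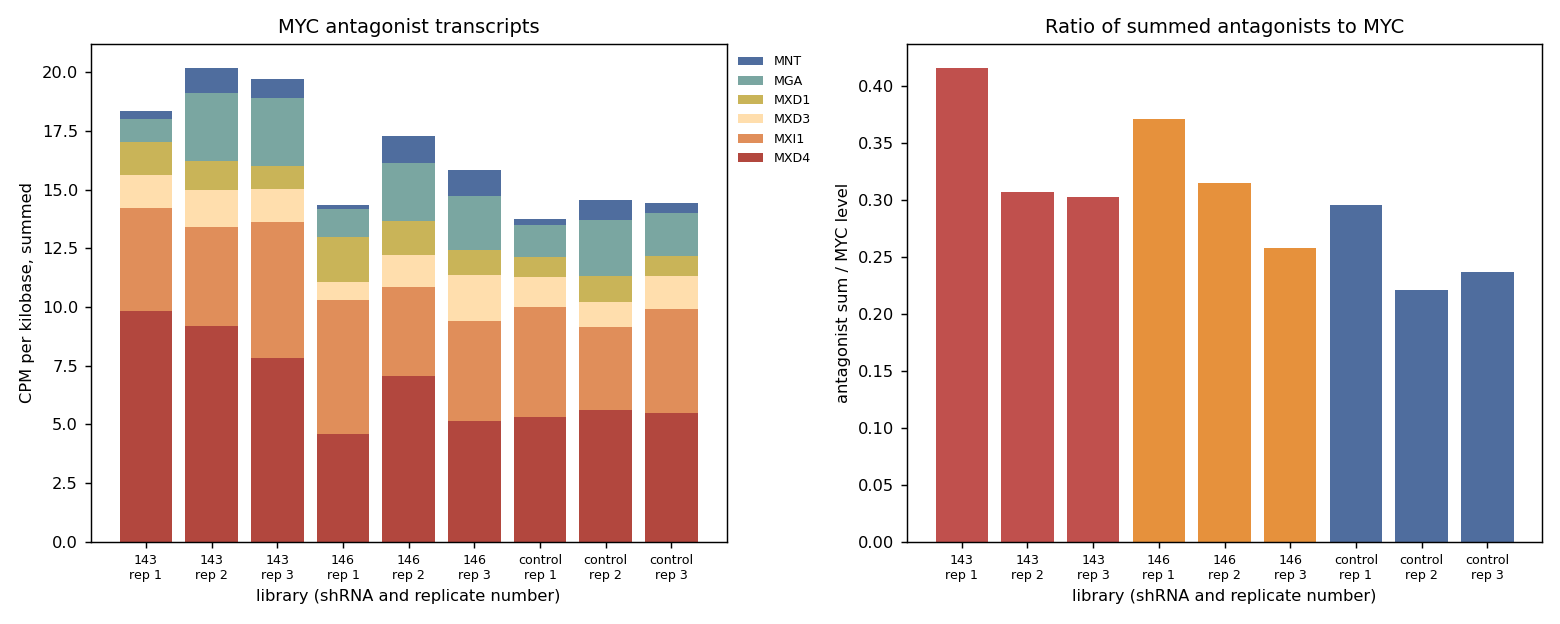
Left, level of the 6 antagonist transcripts in CPM per kilobase, stacked for each library, and right, their sum divided by the MYC level of that library (both axes from 0). The sums of the shRNA-143 libraries reach 18.4 to 20.2 CPM per kilobase, and MXD4 is the largest band except in shRNA-146 replicate 1, where MXI1 is.

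The genes whose levels moved most like MYC over the 9 libraries, after centring on the replicate number, were TARS2, a mitochondrial threonyl-tRNA synthetase (Pearson r = 0.962), AIFM1, a mitochondrial flavoprotein (0.932), HNRNPD, an mRNA-decay factor that binds AU-rich elements (0.928), AACS, acetoacetyl-CoA synthetase (0.922), and SELPLG, the selectin ligand PSGL-1 (0.917). Without centring the same r was 0.991 for TARS2, 0.387 for AIFM1, 0.980 for HNRNPD, -0.519 for AACS and 0.912 for SELPLG, so AIFM1 and AACS resemble MYC within numbers and not over the 9 libraries as a whole. They are the first 5 of 8067 genes with a mean of at least 10 CPM, and with so many genes and 9 libraries that share a scaling such values describe these libraries only. Of the members at that level, the centred r was 0.33 for MXD4, 0.31 for MGA, -0.04 for MAX, -0.10 for MLXIP, -0.11 for MXI1 and -0.54 for MLX. Uncentred, it was 0.21 for MXD4, 0.89 for MGA, -0.85 for MAX, 0.88 for MLXIP, -0.39 for MXI1 and -0.87 for MLX, values in which the split between libraries numbered 1 and the others takes part.

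Few of the genes whose proteins work with MYC or its antagonists were called. Among 15 tested cofactors of MYC activation, 0 rose and 1 fell for the mean of both shRNAs with the block, against 2.98% of tested genes that rose and 2.75% that fell. That gene was WDR5, a WD40 protein that anchors MYC to chromatin and is also counted in PRC1.6, at 67.5 ± 6.48 CPM with shRNA-143, 96.8 ± 9.27 with shRNA-146 and 109 ± 4.50 in control (SD, n = 3). Its log2 fold change was -0.44 ± 0.11 (edgeR with the block, adjusted p = 0.0412), called with shRNA-143 (adjusted p = 0.0183) and not with shRNA-146 (adjusted p = 0.422), and the difference between shRNAs was not called (adjusted p = 0.0892). Of 15 SIN3 corepressor genes tested 0 were called in either direction, and those with the smallest p were SAP18 at -0.41 ± 0.12 (adjusted p = 0.0626) and BRMS1 at -0.35 ± 0.13 (adjusted p = 0.120). WDR5 was also the single call among 14 PRC1.6 partners of MGA. It was lost on leaving out any single library other than shRNA-146 replicate 1. Without that library 2 cofactors rose and 2 fell, and 1 corepressor gene rose and 2 fell, where 10.2% of genes rose and 9.87% fell. Among the PRC1.6 partners 1 rose and 3 fell in that setting.

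Of 18 genes that act on the stability of MYC protein, 1 rose and 1 fell for the mean of both shRNAs with the block, beside 2.98% and 2.75% of tested genes. USP37, a deubiquitinase that stabilises MYC, stood at 14.9 ± 3.64 CPM with shRNA-143, 15.7 ± 3.58 with shRNA-146 and 9.48 ± 5.19 in control (SD, n = 3), a log2 fold change of 0.78 ± 0.17 (edgeR with the block, adjusted p = 0.0281). Exons of VIL1 overlap 32.8% of USP37, which leaves its count uncertain. AURKA, a mitotic kinase known to protect MYC family proteins from degradation, stood at 125 ± 9.48 CPM with shRNA-143, 105 ± 6.74 with shRNA-146 and 152 ± 14.9 in control, a change of -0.41 ± 0.10 (adjusted p = 0.0411). The list median was 0.05, against 0.01 over all tested genes. Without replicates 2 or 3 of shRNA-143, or without any of the control libraries, 0 of these genes were called, and without shRNA-146 replicate 1 the counts were 4 up and 2 down, beside 10.2% and 9.87% of genes.

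Among 27 tested genes that MYC is known to activate, 0 rose and 1 fell for the mean of both shRNAs with the block, where 2.98% of tested genes rose and 2.75% fell. The list median was -0.13 against 0.01 over all tested genes, with 5 of 27 positive, against 51.0% of all tested genes. Changes also followed gene length. Without the block, the median for the mean of both shRNAs was -0.20 in the bin of shortest genes and 0.21 in that of longest genes. The part of gene length in the list median was not tested. The gene that fell was HSP90AB1, the constitutive cytosolic HSP90, at 1723 ± 222 CPM with shRNA-143, 3123 ± 75.2 with shRNA-146 and 3627 ± 194 in control (SD, n = 3). Its change was -1.08 ± 0.14 with shRNA-143 (edgeR with the block, adjusted p = 0.00385) and -0.21 ± 0.14 with shRNA-146 (adjusted p = 0.379). Of the 8 listed genes that MYC is known to repress, 6 were tested, 1 rose and 0 fell. With the block the count of activated genes that fell was 9 of 27 without shRNA-146 replicate 1, where 9.87% of genes fell. It was 8 of 27 without the 3 libraries numbered 1 (9.29%), a setting chosen after seeing the data. It was 0 without shRNA-143 replicate 2 or 3 or any of the control libraries. The repressed gene that rose was CDKN1A, the cyclin-dependent kinase inhibitor p21, at 54.3 ± 21.2 CPM with shRNA-143, 106 ± 15.1 with shRNA-146 and 39.6 ± 8.87 in control. Its change was 0.43 ± 0.22 with shRNA-143 (adjusted p = 0.287) and 1.47 ± 0.22 with shRNA-146 (adjusted p = 0.00764), and 0 repressed genes were called for the mean without any of the control libraries. Of the 14 monocytic markers 0 rose and 1 fell in the same fit, with 9 positive and a median of 0.11. That gene, MPO, a promyelocyte enzyme, fell for the mean of both shRNAs (edgeR with the block, -0.71 ± 0.11, adjusted p = 0.00904), at 41.6 CPM on average with shRNA-143, 35.7 with shRNA-146 and 62.1 in control, and its part in these list values was not tested.

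Of 6 genes known to respond to MondoA and MLX, 0 were called in either direction for the mean of both shRNAs with the block. In that fit 2.98% of tested genes rose and 2.75% fell. The list median was 0.26, against 0.01 over all tested genes. PFKFB3, which makes the glycolytic activator fructose 2,6-bisphosphate, was at 0.43 ± 0.12 (edgeR with the block, adjusted p = 0.0550) and TXNIP, the thioredoxin-interacting protein that limits glucose uptake, at 0.31 ± 0.11 (adjusted p = 0.120). Of the relatives outside the 10 members, MYCL, a MYC paralogue, was at -0.30 ± 0.12 (adjusted p = 0.140) and MLXIPL, the MLXIP paralogue ChREBP, at 0.15 ± 0.34 (adjusted p = 0.817), while MYCN had 0 counts in every group. Without the block edgeR called 0 genes in each of these lists for the mean of both shRNAs, and DESeq2 called 1, a MYC-activated gene that fell. With the block and without shRNA-146 replicate 1, 1 MondoA and MLX gene rose, where 10.2% of genes rose. In that setting 1 of the relatives outside the 10 members fell, where 9.87% of genes fell.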

How the data were processed

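RNA-seq libraries of THP-1 cells were used, 3 per group, in all 3 groups. The authors deposited raw counts per gene, and a table per shRNA with counts, normalised signal (counts divided by 1 size factor per library), FPKM, log2 fold change and p-value; the FPKM values were not used. Per the submitters' processing notes, fastp, STAR 2.5, featureCounts and DESeq2 were run on hg38, with no role given; the strand setting was not stated there. Coordinates and exon overlaps come from GENCODE release 29 on that build, whose gene lengths equal the deposited ones for all 10 members.

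Counts were filtered with filterByExpr, TMM-scaled and tested in edgeR 4.0.16 (glmQLFit, robust, and glmQLFTest; R 4.3.3) on all 9 libraries with 3 group means and 6 residual degrees of freedom, or 4 with the replicate number as a block. P-values were adjusted by Benjamini-Hochberg over 14975 genes. An SE is the log2 fold change divided by the square root of F. Tested genes held over 99.9% of counts in every library. Libraries of a group differed by far more than counting noise (chi-square per degree of freedom 20.3 to 389), so none was a library deposited again; this does not show that they came from separate cultures. The code was tested on simulated data.

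The titles number the replicates without saying what libraries of a number have in common. Deviations from group means correlated at 0.252 to 0.758 in the 9 pairs that share a number, against -0.678 to 0.535 for other pairs, and 9 of 9 libraries matched their own number best, so the numbers were taken as pairs. That split is mainly number 1 against the rest: libraries numbered 2 and 3 also correlated with each other, at up to 0.535, above the 0.252 and 0.329 between control replicate 3 and the shRNA libraries numbered 3. Calls with the block rest on this pairing.

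Named genes were the 10 members, the target, the 5 genes most like MYC, and from each list up to 4 genes called for the mean of both shRNAs with the block or, where there were none, the 2 with the smallest p. The members and lists were chosen with earlier results of these data known. Alternatives were another scaling, no filter, DESeq2 1.42.0, a lowess correction on gene length with the block, and leaving out libraries.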

Additional observations from a re-analysis of the deposited data

Results flagged for a closer look

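HSP90AB1 differed between the shRNAs in the fit with the replicate block, standing 0.87 ± 0.14 higher on the log2 scale with shRNA-146 than with shRNA-143 (edgeR adjusted p = 0.0136), after changes against control of -0.21 with shRNA-146 and -1.08 with shRNA-143. CDKN1A differed in the same test, by 1.04 ± 0.22 (adjusted p = 0.04998), with changes against control of 1.47 with shRNA-146 and 0.43 with shRNA-143. Their part in other values was not tested. Of the 10 members, 0 differed between the shRNAs at that threshold.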

How the results depend on the processing

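With the replicate number as a block the count of genes called was 474 with shRNA-143, 662 with shRNA-146, 859 for the mean of both and 179 between the shRNAs, against 7, 5, 5 and 7 without it. Scaling by library size gave 16 with shRNA-143 and 2 with shRNA-146, and with the block 414, 835, 858 and 186 in the same 4 comparisons. Median-of-ratios scaling gave 3 with shRNA-146. DESeq2 gave 109, 119, 148 and 62, and the length correction with the block 415, 491, 636 and 204. Without the 3 libraries numbered 1 the counts were 589, 951, 1525 and 160, and with the block added, a setting chosen after seeing the data, 1575, 2111, 2902 and 319. Over both fits, leaving out single libraries gave 1 to 2099, 0 to 1745, 0 to 3075 and 0 to 344.

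Against 0 members called without it, the block gave 1 (MXD4 with shRNA-143, where 1.6% of tested genes rose) and changed no other member call. Library-size scaling with the block gave 1 with shRNA-143 and 1 with shRNA-146, where 1.78% and 4.53% of tested genes rose. Without the libraries numbered 1, with the block, it was 2 with shRNA-143, 1 with shRNA-146 and 1 for the mean of both. All of these rose, as did 5.6%, 7.69% and 9.86% of genes. Leaving out single libraries gave 0 to 1, 0 to 2 and 0 to 3. Each highest count was reached with the block and without shRNA-146 replicate 1, where 7.12%, 6.47% and 10.2% of genes rose.

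Log2 fold changes near 0 changed sign. With shRNA-143, MAX stood at -0.057 without the libraries numbered 1 (-0.054 with the block), MLX at -0.0054 and, after the length correction, MGA at -0.045. With shRNA-146, library-size scaling put MAX at 0.052 (0.060 with the block), and the length correction put MXD4 at -0.10 and MGA at -0.22. For the mean of both, library-size scaling put MYC at 0.058 (0.029 with the block) and MAX at 0.079 (0.082), and the length correction put MYC at 0.020 and MGA at -0.13. Between the shRNAs, MNT stood at -0.078 with the block, -0.028 with library-size scaling and block and -0.10 after the length correction, and MXD3 at 0.15 without the libraries numbered 1 (0.13 with the block). The cause was not tested.

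Leaving out single libraries, the ranges that crossed 0 were, with shRNA-143, MYC -0.12 to 0.18, MAX -0.21 to 0.16, MGA -0.034 to 0.64, MLX -0.16 to 0.29 and MLXIP -0.047 to 0.89. With shRNA-146 they were MYC -0.30 to 0.0076, MAX -0.22 to 0.062, MXI1 -0.068 to 0.24, MXD3 -0.19 to 0.43, MXD4 -0.18 to 0.16 and MGA -0.14 to 0.36. For the mean of both they were MYC -0.21 to 0.034, MAX -0.17 to 0.11 and MGA -0.086 to 0.42. Between the shRNAs they were MAX -0.24 to 0.13, MXI1 -0.26 to 0.091, MXD3 -0.43 to 0.19, MNT -0.50 to 0.60, MGA -0.54 to 0.089, MLX -0.056 to 0.39, MLXIP -0.24 to 0.73 and NFATC2 -0.20 to 0.61.

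Where a 95% interval given above includes 0, the sign of the change was not settled with 3 libraries per group. Any value within such an interval remains compatible with these data. MXD1, MXD3 and MNT had the fewest reads, and overlapping exons leave the counts of MXD3, MNT and MLX uncertain.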
